A study of Homo sapiens with 20 samples.

Results

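Among 19593 genes measured by SLAM-seq in MM1.S cells, 98 had less newly made RNA under dCBP-30 than under DMSO at each of 2, 6 and 24 h. SLAM-seq marks RNA made during a short pulse of 4-thiouridine (4sU), which sequencing reads as C, so a read with such a conversion (a T>C read) stands for RNA made during the pulse. For each gene the transcript with the highest read count over the libraries was used, and its T>C reads were scaled to 1000000 reads on genes (RPM). A gene was taken when the mean of its 3 DMSO libraries reached 3 RPM at every time point and the log2 ratio of dCBP-30 over DMSO, with 0.5 RPM added to both means, was -1.5 or lower at every time point. Of the 4187 genes that reached 3 RPM, 104 met these limits. Of these, 6 were left out because they are among 10 genes set aside by name, MYC and IRF4 included, which left 98 genes, or 2.34% of the genes at the 3 RPM floor. The genes were thus chosen by their T>C reads in this contrast, so their T>C ratios and the total reads of the same libraries are given as a description, with no test.

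MM1.S is an established human multiple myeloma cell line, a tumour line of plasma cells, so the values stand for 1 line in culture. It was treated with 10 nM dCBP-30, a heterobifunctional degrader of the acetyltransferases CBP and p300 that acts through cereblon, or with DMSO, the vehicle, during 2, 6 or 24 h, and all 18 of these libraries were labelled with 4sU in the last hour before harvest. Each of the 6 groups held 3 libraries, and DMSO libraries were made anew for each time point. Another 2 libraries of MM1.S cells had no 4sU and gave the background of the assay. Markers of plasma cells were well covered under DMSO, with total reads of SDC1 between 1021 and 1621 RPM and of XBP1 between 952 and 1339 RPM, while the T cell gene CD3D, the myeloid gene LYZ and the epithelial gene EPCAM had 0 reads in all 9 DMSO libraries. Other markers of these and further types were not all at 0, with the T cell gene CD3E at 1.83 to 6.72 RPM, the myeloid gene CD14 at 0 to 0.364 RPM and the erythroid gene HBB at 4.24 to 9.84 RPM in the DMSO libraries.

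CBP and p300 acetylate histones at enhancers and are brought there by transcription factors, and cells of one lineage keep their identity genes active through large clusters of such enhancers. Plasma cells depend in this way on a small set of transcription factors and on a wide secretory apparatus for antibody. The level of an RNA is set both by its making and by its decay. A gene with short-lived RNA therefore has a large share of T>C reads after a pulse, and a gene with long-lived RNA a small one.

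Between 12439665 and 18727385 reads per library fell on genes. T>C reads made up 5.99 to 8.62% of them under DMSO, 4.71 to 6.86% under dCBP-30 and 0.794 and 0.809% without 4sU. Counted conversions divided by T>C reads came to 2.20, 2.17 and 2.48 on average under DMSO at 2, 6 and 24 h. Under dCBP-30 they came to 2.17, 2.24 and 1.47, so this ratio was lower at 24 h over all genes. Without 4sU it was 0.928 and 0.918. As each T>C read holds a conversion, values this low show that the ratio is not an exact number of conversions per read. Within the 98 genes the same means were 2.16, 2.16 and 2.45 under DMSO and 1.63, 1.91 and 1.46 under dCBP-30. The part of these differences in the T>C ratios was not tested. In bulk libraries fewer cells that use a gene and less RNA of it per cell cannot be told apart.

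The 98 genes had median T>C log2 ratios of -2.53, -2.89 and -2.38 at 2, 6 and 24 h, where all 4187 genes at the floor had medians of 0.00, -0.24 and -0.43. In plain terms, the median gene kept 13.6%, 10.6% and 16.5% of its DMSO level of T>C reads. A ratio of -1.5 or lower was found in 7.07% of the 4187 genes at 2 h, 11.2% at 6 h, 13.4% at 24 h and 2.48% at all of them. The T>C levels of the groups did not overlap in any of the 98 genes at any time point, and among the 4187 genes the dCBP-30 libraries all lay below the DMSO libraries in 21.6%, 35.3% and 45.8%. Nothing is read from these counts, since the rule fixed them. Just inside the limit lay RCSD1, IGLC1 and SEL1L, with least negative ratios of -1.53, -1.51 and -1.51. Just outside it lay IRF2BPL, LIME1 and CD28, with least negative ratios of -1.49, -1.49 and -1.48.

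**Figure D1:**
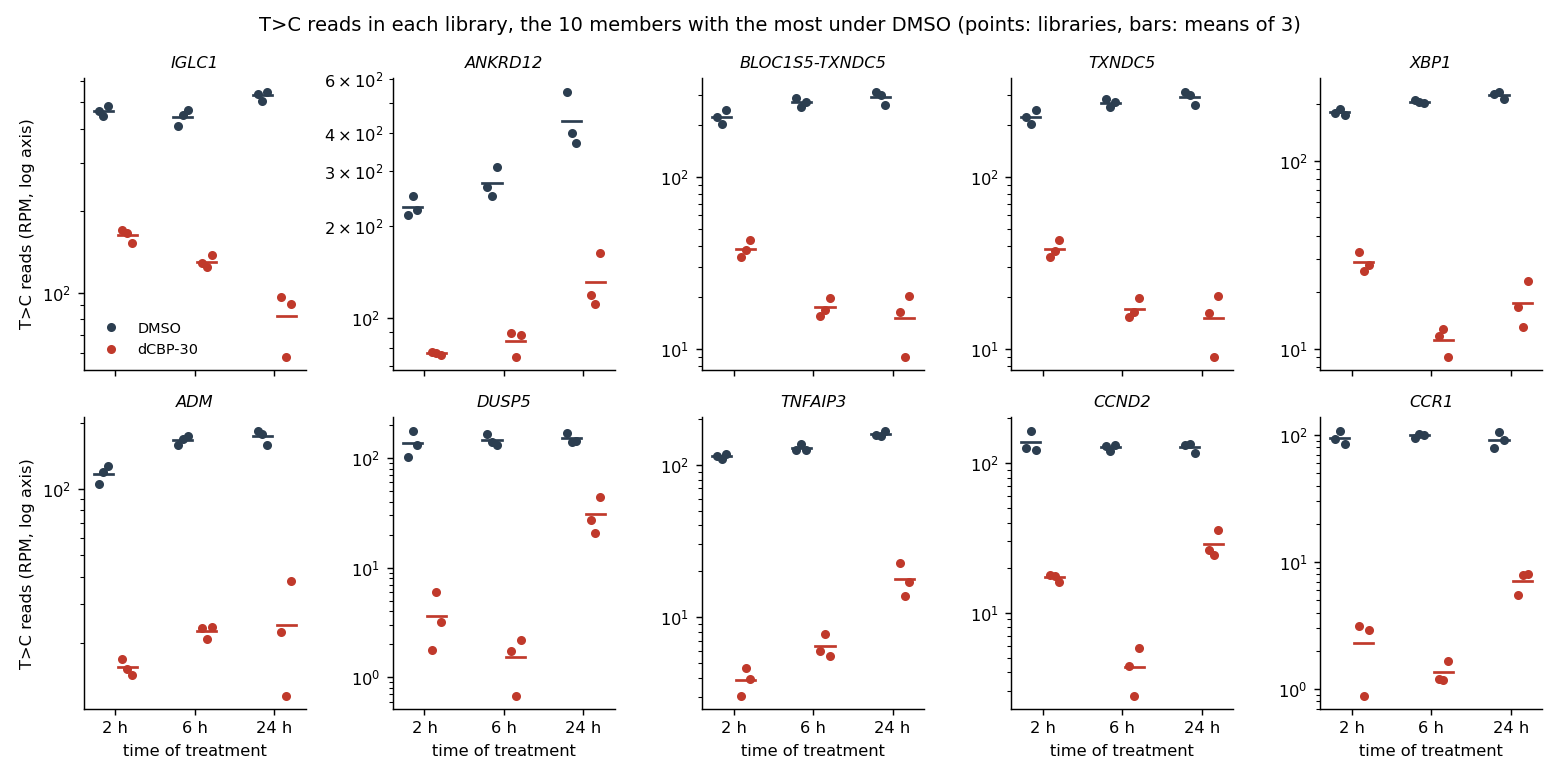
T>C reads in RPM on a log axis in every library of the 10 genes of the set with the most T>C reads under DMSO, at 2, 6 and 24 h; points are libraries and bars the means of 3. In each panel all dCBP-30 libraries lie below all DMSO libraries at every time point, for XBP1 at 26.0 to 32.6 RPM against 174 to 189 RPM at 2 h.

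The secretory apparatus of the plasma cell formed one group of 11 genes. XBP1, the transcription factor of the unfolded protein response that drives the secretory programme, had T>C reads of 180.5, 189 and 174 RPM under DMSO and 32.6, 26.0 and 28.0 RPM under dCBP-30 at 2 h. At 6 h they were 209.8, 206 and 204 RPM under DMSO and 11.6, 12.7 and 9.08 RPM under dCBP-30, and at 24 h 226, 233 and 213 RPM under DMSO and 16.6, 13.1 and 23.1 RPM under dCBP-30. The log2 ratios were -2.63, -4.15 and -3.63 in T>C reads and -0.77, -3.57 and -3.40 in total reads. In T>C reads the dCBP-30 libraries lay far below the DMSO libraries throughout, while total reads at 2 h were still 58.8% of DMSO. ERN1 encodes IRE1, the kinase and RNase that splices XBP1 mRNA. Its T>C reads were 26.6, 33.7 and 31.1 RPM under DMSO and 4.42, 7.30 and 5.81 RPM under dCBP-30 at 2 h, and its T>C log2 ratios -2.29, -2.45 and -2.87. The share of T>C reads under DMSO was 55.5% for ERN1 and 17.6% for XBP1.

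TXNDC5, a protein disulfide isomerase family member of the endoplasmic reticulum, had T>C reads of 222, 203 and 245 RPM under DMSO and 34.2, 37.3 and 43.0 RPM under dCBP-30 at 2 h. At 6 h they were 284, 255 and 272 RPM under DMSO and 15.5, 16.4 and 19.8 RPM under dCBP-30, and at 24 h 313, 298 and 261 RPM under DMSO and 16.3, 9.07 and 20.3 RPM under dCBP-30. The readthrough gene BLOC1S5-TXNDC5 ends in the same 3′ UTR (chr6:7881517-7883143, minus strand, hg38) and lists almost the same reads, so the pair is 1 observation. T>C reads of TXNDC5 had log2 ratios of -2.53, -3.93 and -4.21, while its total reads were lower at each later time point, with log2 ratios of -0.20, -1.04 and -3.56. Other genes of the group were TXNDC11, TRAM2, SEL1L, an adaptor of the degradation of misfolded proteins of the endoplasmic reticulum, MAN1A1, a mannosidase of N-glycan trimming, and TENT5C, a poly(A) polymerase often mutated in myeloma. TENT5C had T>C log2 ratios of -3.44, -4.21 and -2.77 and total ratios of -0.72, -3.96 and -2.61.

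Of the antibody genes themselves, IGLC1 and JCHAIN were in the set. IGLC1 encodes a constant region of the lambda light chain (3′ UTR chr22:22895695-22895834, plus strand, hg38, overlapping IGLL5), and its reads cannot be assigned with certainty, because IGLL5 ends in the same UTR and the other lambda constant genes are close copies. Its T>C reads were 463, 446 and 485 RPM under DMSO and 170.0, 166 and 152 RPM under dCBP-30 at 2 h. They were 410.2, 449 and 468 RPM under DMSO and 128, 124 and 137 RPM under dCBP-30 at 6 h and 534, 507 and 546 RPM under DMSO and 96.5, 58.3 and 91.0 RPM under dCBP-30 at 24 h. These are a small part of its RNA: the T>C share under DMSO was 0.687 to 0.892% over 9 libraries, with 0.199% without 4sU. Its total reads were 59729, 57152 and 62899 RPM under DMSO and 50762, 52157 and 53702 RPM under dCBP-30 at 6 h. At 24 h they were 60829.8, 59191 and 61228 RPM under DMSO and 9976, 7209 and 9392 RPM under dCBP-30, so the gap between the groups was much wider at 24 h. JCHAIN, which joins antibody units, had total reads of 1574, 1085 and 847 RPM under DMSO and 926, 455 and 1056 RPM under dCBP-30 at 2 h, where the groups overlapped. At 24 h they were 586, 759.8 and 945 RPM under DMSO and 140.0, 133 and 138 RPM under dCBP-30, with no overlap.

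Transcription regulators made up 15 of the 98 genes. From a list of 41 transcription factors of B and plasma cells, 26 reached the floor and 7 were in the set: XBP1, IKZF1 (Ikaros), POU2AF1 (the coactivator of the octamer factors), MYB, ETS1, ZBTB38 and E2F2. T>C log2 ratios of these 26 genes had medians of -1.76, -1.70 and -0.998 at 2, 6 and 24 h, and 15, 15 and 8 of them were at -1.5 or lower. Of all 4187 genes at the floor 7.07%, 11.2% and 13.4% were, and 2.34% were in the set. This list and the lists below were written with earlier results of these data known. Their counts therefore describe the set and give no independent support. MYB, a regulator of blood progenitors, had T>C reads of 11.4, 9.54 and 14.8 RPM under DMSO and 2.41, 1.46 and 4.74 RPM under dCBP-30 at 2 h. At 24 h they were 12.2, 17.2 and 15.4 RPM under DMSO and 0.142, 0.508 and 0 RPM under dCBP-30, which stands for 2, 7 and 0 reads in the dCBP-30 libraries. Total reads of MYB had log2 ratios of -0.92, -2.02 and -5.65. E2F2, an activator of S phase genes, followed the same course in total reads, with -0.28, -1.62 and -4.54. POU2AF1 had T>C log2 ratios of -2.39, -3.98 and -3.24 and total ratios of 0.05, -2.16 and -2.96. The ratios of IKZF1 were -2.31, -1.79 and -2.08 in T>C reads and -0.33, -1.47 and -0.83 in total reads, of ETS1 -1.82, -1.89 and -2.12 and -0.30, -1.57 and -2.55, and of ZBTB38 -2.40, -3.78 and -1.70 and -0.66, -3.35 and -1.49. The other regulators were RUNX2, TLE3 (a corepressor), BARX2, ARID5A, ARID5B, NFIL3, NFE2L3, KLF10, an early gene of TGF-beta signalling, and HES6, the only one of 4 Notch pathway genes at the floor that was in the set. RUNX2 had T>C log2 ratios of -2.52, -3.08 and -3.08, and HES6 of -1.78, -2.84 and -2.71.

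Receptors and other surface proteins were the largest group, with 17 genes. CCR1, a receptor of inflammatory chemokines, had T>C reads of 93.0, 108 and 84.9 RPM under DMSO and 3.14, 0.889 and 2.90 RPM under dCBP-30 at 2 h. At 6 h they were 94.4, 102 and 101 RPM under DMSO and 1.20, 1.17 and 1.68 RPM under dCBP-30, and at 24 h 79.0, 105 and 90.7 RPM under DMSO and 5.46, 7.84 and 8.06 RPM under dCBP-30. The T>C log2 ratios of -5.09, -5.75 and -3.59 gave CCR1 the lowest mean of the 98 genes, and its total reads followed within 6 h, with ratios of -1.42, -6.08 and -3.35. CXCR4, the receptor of CXCL12 that holds plasma cells in the bone marrow, had T>C reads of 19.9, 25 and 15.3 RPM under DMSO and 0.643, 0.698 and 0.652 RPM under dCBP-30 at 2 h. They were 13.1, 20.1 and 12.9 RPM under DMSO and 0.535, 0.742 and 0.838 RPM under dCBP-30 at 6 h and 12.5, 16.5 and 20.2 RPM under DMSO and 0.355, 0.145 and 0.972 RPM under dCBP-30 at 24 h, so it stayed low at all of them, with log2 ratios of -4.14, -3.72 and -4.09.

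Several of these proteins are in use or under study as targets on myeloma cells. Total reads of SDC1, the syndecan known as CD138, were 1120.2, 1230.2 and 1359.9 RPM under DMSO and 1131, 1278 and 1089 RPM under dCBP-30 at 2 h, where the groups overlapped. At 24 h they were 1163, 1021 and 1058 RPM under DMSO and 197, 174 and 206 RPM under dCBP-30, with no overlap. For TNFRSF17, the antigen BCMA, T>C reads were 13.3, 8.68 and 9.43 RPM under DMSO and 1.04, 0.381 and 1.36 RPM under dCBP-30 at 2 h, and total reads had log2 ratios of -0.69, -3.74 and -4.39. Its relative TNFRSF13B (TACI) had total ratios of -0.28, -3.05 and -3.55. Both bind the survival factors BAFF and APRIL. IL6R, the receptor of interleukin 6, the main growth factor of myeloma cells, had T>C ratios of -2.05, -3.61 and -1.75 and total ratios of -0.19, -3.17 and -1.44. CSF2RB, the chain shared by the receptors of interleukin 3, interleukin 5 and GM-CSF, had total ratios of -0.01, -2.27 and -0.76. Of 19 listed genes of cytokines, chemokines and their receptors at the floor, 11, 15 and 9 had a T>C ratio of -1.5 or lower at 2, 6 and 24 h and 6 were in the set (IL6R, CCR1, CXCR4, TNFRSF13B, TNFRSF17 and CSF2RB). Of 13 surface antigen and adhesion genes, 9, 10 and 6 had such a ratio and 4 were in the set (SDC1, CD44, CD48 and LAX1). Beside both lists, 7.07%, 11.2% and 13.4% of all 4187 genes at the floor had such a ratio, and 2.34% were in the set. CD44, the hyaluronan receptor, had T>C ratios of -1.72, -3.13 and -3.20, CD48 of -2.45, -3.56 and -1.87 and LAX1 of -2.91, -2.94 and -2.65. The dCBP-30 level of CD44 at 6 h was not above its background without 4sU. Others were FCMR, the Fc receptor of IgM, the histamine receptor HRH2, the potassium channel KCNA3, the butyrophilin BTN2A2, the protocadherin PCDH1, P2RY10 and LAMP5.

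Inhibitors and adaptors of signalling numbered 13. DUSP5, a nuclear phosphatase of ERK, had T>C reads of 103, 177 and 131 RPM under DMSO and 1.77, 5.97 and 3.20 RPM under dCBP-30 at 2 h. At 6 h they were 165, 139 and 131 RPM under DMSO and 1.74, 0.680 and 2.17 RPM under dCBP-30, and at 24 h 171, 140.2 and 143 RPM under DMSO and 27.4, 20.8 and 43.8 RPM under dCBP-30. The level at 6 h was 1.06% of DMSO, and at 24 h 20.3%, with log2 ratios of -5.05, -6.16 and -2.28 over the time points. TNFAIP3, the ubiquitin editor A20 that restrains NF-kB, had T>C reads of 115, 109 and 118 RPM under DMSO and 3.05, 4.63 and 3.91 RPM under dCBP-30 at 2 h. At 6 h they were 125, 136 and 125 RPM under DMSO and 6.02, 7.79 and 5.52 RPM under dCBP-30, and at 24 h 158, 155 and 167 RPM under DMSO and 22.8, 13.9 and 16.9 RPM under dCBP-30. All dCBP-30 libraries of TNFAIP3 were far below DMSO, with log2 ratios of -4.71, -4.22 and -3.13. TRIB1 is a pseudokinase of the Tribbles family. Its T>C reads were 14.6, 18 and 25.2 RPM under DMSO and 0, 0.508 and 0.356 RPM under dCBP-30 at 2 h, 28.0, 30.7 and 29.6 RPM under DMSO and 0, 0.0618 and 1.12 RPM under dCBP-30 at 6 h and 22, 22.6 and 22 RPM under DMSO and 1.85, 0.943 and 2.85 RPM under dCBP-30 at 24 h. Of 13 listed feedback inhibitors of signalling at the floor, 9, 9 and 5 had a T>C ratio of -1.5 or lower at 2, 6 and 24 h, and DUSP4, DUSP5 and TRIB1 were in the set. Of 12 NF-kB response genes 3, 4 and 1 had such a ratio, and TNFAIP3 was in the set. Of 12 immediate early genes 6, 5 and 1 had it, and KLF10 was in the set. Of all 4187 genes at the floor, 7.07%, 11.2% and 13.4% had it, and 2.34% were in the set. At 24 h the NF-kB and immediate early genes had 1 of 12 each, too few to be told apart from the share of all genes. DUSP4 had T>C ratios of -4.10, -3.60 and -1.86, and PTPN6, the phosphatase SHP-1, of -2.34, -2.43 and -1.80. The others were the adaptors SH2B2, NCK2, LAX1 and SPSB1, and RASSF4, CYTIP, TNFAIP8 and PPP1R16B, with T>C ratios at 2 h of -2.52, -1.93, -2.91, -2.20, -2.68, -3.04, -2.90 and -2.63.

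The kinases were PIM1, SGK1, NUAK1 and PDK1. PIM1, a survival kinase induced by cytokines, had T>C log2 ratios of -2.79, -2.89 and -2.45 and total ratios of -2.57, -2.17 and -1.67. SGK1, a kinase of the AKT relatives, had T>C reads of 12.8, 13.7 and 9.69 RPM under DMSO and 0.884, 0.381 and 0 RPM under dCBP-30 at 2 h. By 24 h these were 6.42, 9.99 and 9.65 RPM under DMSO and 2.20, 1.09 and 2.50 RPM under dCBP-30, closer together but with no overlap. PIM1 and SGK1 were the 2 of 12 listed survival kinases at the floor in the set, which held 2.34% of all 4187 genes at the floor. T>C ratios at 2 h were -3.43 for NUAK1, a kinase of the AMPK relatives, and -2.45 for PDK1, which inhibits pyruvate dehydrogenase.

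Of the genes of the G1 phase, CCND1 and CCND2 were in the set, 2 of 10 at the floor, where 2.34% of all 4187 genes were. CCND2, cyclin D2, had T>C reads of 127, 165 and 124 RPM under DMSO and 17.9, 17.6 and 16.1 RPM under dCBP-30 at 2 h. At 6 h they were 131, 122 and 134 RPM under DMSO and 4.42, 2.78 and 5.80 RPM under dCBP-30, and at 24 h 132, 134 and 118 RPM under DMSO and 26.3, 24.3 and 35.6 RPM under dCBP-30. Its total reads overlapped between the groups at 2 h and not later, with log2 ratios of -0.17, -2.45 and -2.59. CCND1, cyclin D1, had T>C reads of 11.7, 14.7 and 8.17 RPM under DMSO and 1.37, 3.11 and 1.19 RPM under dCBP-30 at 2 h. They were 10.8, 13.1 and 10.4 RPM under DMSO and 0, 0 and 0.419 RPM under dCBP-30 at 6 h and 17.3, 14.7 and 20.5 RPM under DMSO and 0.142, 0 and 0 RPM under dCBP-30 at 24 h. The level at 24 h rests on 2 T>C reads against 878, a ratio of 0.273% with a 95% exact interval of 0.033 to 0.99% that covers counting error only. For CYP26A1 at 24 h the ratio rests on 1 T>C read against 584 (0.205%, interval 0.0052 to 1.15%), and for SH2B2 at 6 h on 1 against 261 (0.409%, interval 0.0103 to 2.30%). No gene had 0 T>C reads in all 3 dCBP-30 libraries of a time point. BCL2L1, which encodes the survival protein BCL-XL, was the only one of 7 BCL2 family genes at the floor in the set, with T>C ratios of -3.09, -2.89 and -1.82.

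Secreted signals numbered 5: ADM, IGF1, GDNF, WNT5B and LEFTY2. ADM encodes the vasodilator peptide adrenomedullin, and its T>C reads were 105, 119 and 127 RPM under DMSO and 17.0, 15.3 and 14.3 RPM under dCBP-30 at 2 h. They were 158, 169 and 175 RPM under DMSO and 23.4, 20.8 and 23.7 RPM under dCBP-30 at 6 h and 184, 179 and 158 RPM under DMSO and 22.4, 11.5 and 38.3 RPM under dCBP-30 at 24 h, the last with a wide spread under dCBP-30. ANKRD12, an ankyrin repeat protein, belonged to none of the roles and had T>C reads of 216, 249 and 224 RPM under DMSO and 77.7, 76.9 and 75.9 RPM under dCBP-30 at 2 h. They were 267, 250.0 and 311 RPM under DMSO and 89.2, 74.9 and 88.3 RPM under dCBP-30 at 6 h and 545, 400.5 and 371 RPM under DMSO and 119, 111 and 163 RPM under dCBP-30 at 24 h. Its log2 ratios of -1.58, -1.71 and -1.74 lay near the limit. Genes of the cytoskeleton, junctions and traffic numbered 10 (PALM2AKAP2, SHROOM3, PKP2, NAV1, STON2, UNC13C, RAB36, RCSD1, GPRIN3 and INAVA), with T>C ratios at 6 h between -3.56 and -2.01. Enzymes and transporters numbered 9: the sialyltransferases ST3GAL1 and ST3GAL6, ADA (adenosine deaminase), the transporters SLC1A4 and SLC25A53, METTL7A, ABHD12, CYP26A1 and NDUFV2, a subunit of respiratory complex I, with ratios at 6 h between -4.41 and -1.63. The 11 genes of other or unclear roles were ANKRD12, ANKRD37, CCDC86, VOPP1, TTC7A, LRRC14B, PRR15, MYEOV, NUGGC, SH3TC1 and 1 that the annotation lists by identifier alone, with ratios at 6 h between -4.69 and -1.60. None of 9 acetyltransferase genes and 10 constitutive genes at the floor was in the set, where 2.34% of all 4187 genes were. Roles were assigned after the names were known, so the sizes of the groups describe the set and are not tested.

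Total reads, new and old RNA together, differed less than T>C reads at 2 h. Their median log2 ratios over the 98 genes were -0.42, -2.34 and -1.80 at 2, 6 and 24 h, compared with 0.05, 0.08 and 0.18 over all 4187 genes at the floor. As a share of DMSO the medians were 74.5%, 18.6% and 28.1%. Total reads were lower by 2-fold with no overlap between the libraries in 24 of the 98 genes at 2 h, where 2.29% of the 4187 genes were. At 6 h this held for 90 of 98 (2-fold lower in 9.89% of the 4187), and at 24 h for 87 of 98 (12.2%). At every time point it held for 23 genes, against 0.717%. No gene of the set was 2-fold higher with no overlap, where 0.191%, 3.13% and 13.9% of the 4187 were. These counts describe the set, because total reads come from the same libraries and contain the T>C reads. At 2 h, 52 of the 98 genes still had a total ratio above -0.5, and 93 had a lower one at 6 h than at 2 h.

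**Figure D2:**
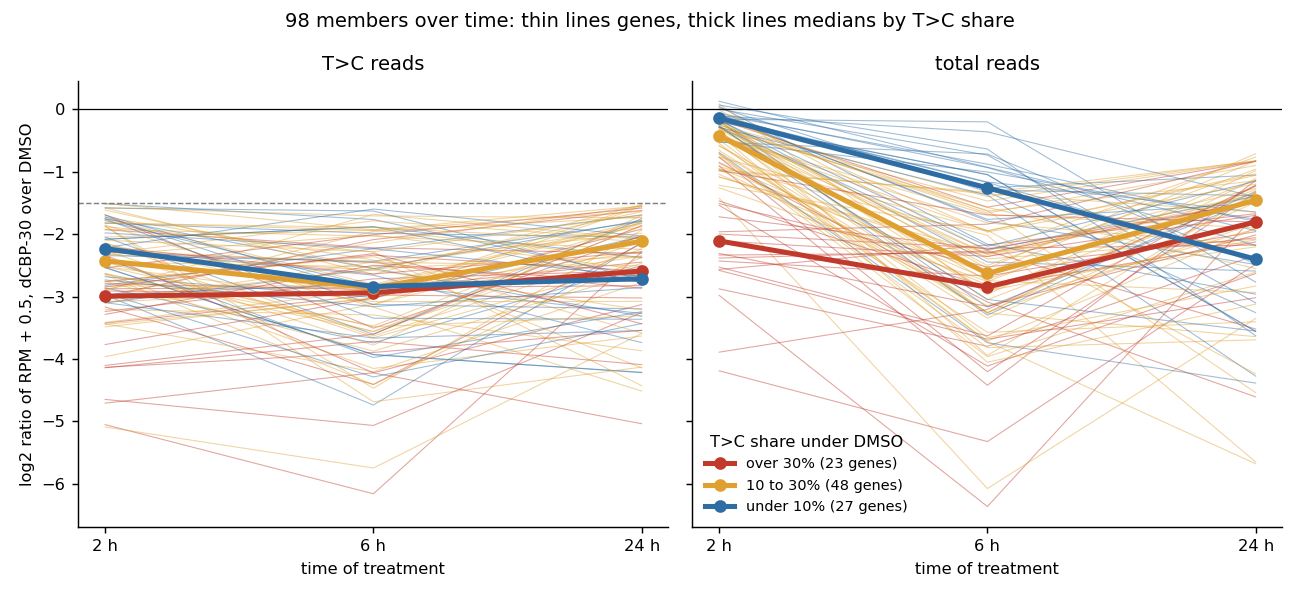
Log2 ratio of dCBP-30 over DMSO (RPM + 0.5) at 2, 6 and 24 h in T>C reads and in total reads, with a thin line for each of the 98 genes, coloured by the share of T>C reads under DMSO, and a thick line for the median of each class; the dashed line marks the limit of -1.5. The classes start close together in T>C reads and far apart in total reads, with medians of -2.11, -0.42 and -0.14 at 2 h in total reads from the highest to the lowest share.

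The total ratio at 2 h differed with the turnover of the RNA, read here from the share of T>C reads. The share of T>C reads under DMSO, the mean of 9 libraries, had a median of 16.8% over the 98 genes and of 11.4% over the 4187, with 0.562% and 0.642% in the libraries without 4sU. The highest shares were those of SGK1 (85.8%), ADM (78.2%), TRIB1 (77.3%), TNFAIP3 (70.4%) and GDNF (69.4%). The lowest were those of IGLC1 (0.786%), LEFTY2 (3.69%), TNFRSF13B (3.82%), ABHD12 (4.24%) and VOPP1 (4.50%). The share depends on labelling and on how many T a read holds, so it orders turnover roughly and gives no half-life.

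Of the 98 genes, 23 had a share over 30%, 48 a share of 10 to 30% and 27 a share under 10%. Median total log2 ratios of the first class were -2.11, -2.85 and -1.80 at 2, 6 and 24 h, and 18, 23 and 21 of its 23 genes were 2-fold lower with no overlap. In the middle class the medians were -0.42, -2.63 and -1.46, with 6, 48 and 39 of 48 genes. In the class under 10% they were -0.14, -1.26 and -2.40, with 0, 19 and 27 of 27 genes. Of all 4187 genes at the floor, whatever their share, 2.29%, 9.89% and 12.2% were 2-fold lower with no overlap. The 4187 were not counted by class, so how far these class differences hold for all expressed genes was not tested. In the class over 30% the total ratio was higher at 24 h than at 6 h in 20 of 23 genes, with CCND1 among the exceptions, and NCK2 of this class was at -0.17 at 2 h. In the class under 10% it was lowest at 24 h in 21 of 27 genes and at 6 h in 6, such as IL6R and PTPN6. TRIB1, with total ratios of -4.19, -5.33 and -2.48, and SGK1, with -3.89, -3.21 and -1.23, show the first of these courses. FCMR, with 0.00, -0.73 and -3.10, and LEFTY2, with 0.07, -0.63 and -3.63, show the last.

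Across the 98 genes the log2 share correlated with the total log2 ratio at -0.78, -0.49 and 0.13 for 2, 6 and 24 h (Pearson; Spearman -0.83, -0.45 and 0.11). Over the 4187 genes at the floor Pearson's r was -0.16, -0.08 and 0.13, and Spearman's 0.01, 0.06 and 0.19, so the ranks of all expressed genes showed no negative relation. These are correlations across genes, which are not independent replicates, and both measures use the same DMSO libraries. Part of the relation at 2 h is arithmetic, since T>C reads are counted in the total and were lower in every gene of the set. With reads without a conversion in place of total reads, r was -0.73, -0.38 and 0.38, and the class medians at 2 h were -1.5, -0.28 and -0.07.

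**Figure D3:**
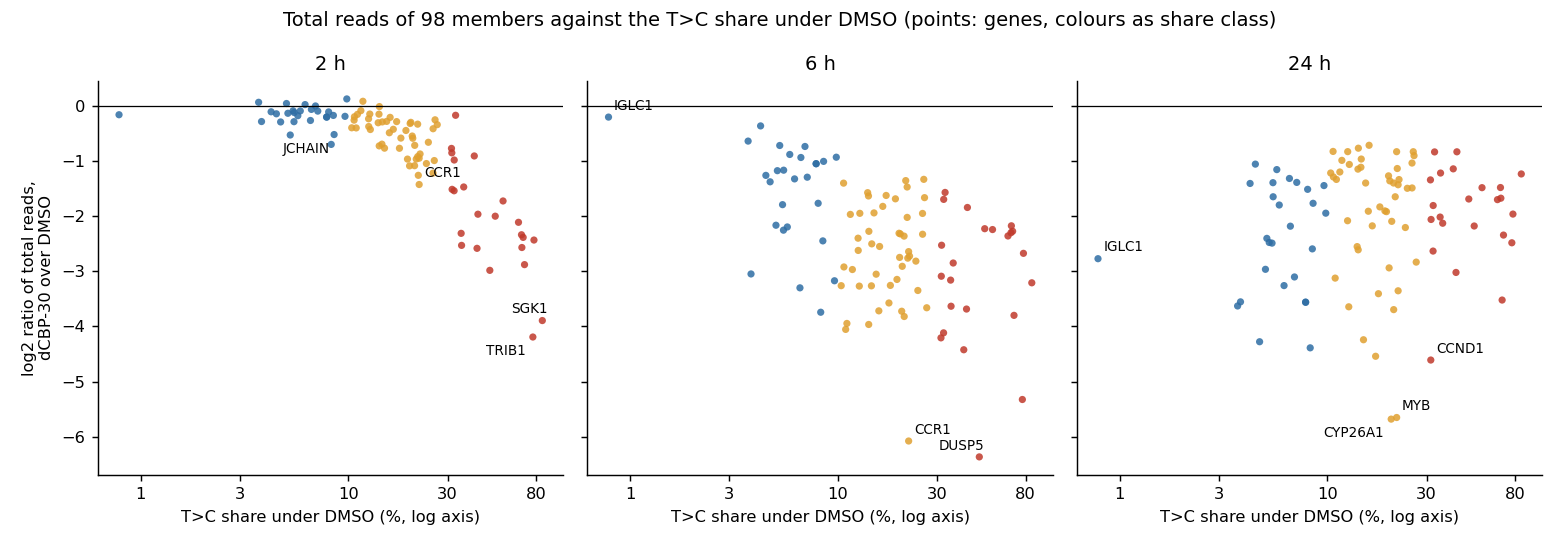
Log2 ratio of total reads, dCBP-30 over DMSO, against the share of T>C reads under DMSO (percent, log axis) for the 98 genes at 2, 6 and 24 h; each point is a gene, coloured by class of share (red over 30%, orange 10 to 30%, blue under 10%). The points fall along a slope at 2 h (r = -0.78) and show no such slope at 24 h (r = 0.13).

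The lowest total ratios at 24 h were those of CYP26A1 (-5.68), an enzyme that breaks down retinoic acid, MYB (-5.65), CCND1 (-4.61), E2F2 (-4.54) and TNFRSF17 (-4.39). The highest were those of NAV1 (-0.71), CSF2RB (-0.76), SEL1L (-0.82), ARID5A (-0.83) and IKZF1 (-0.83). T>C ratios were lowest at 2 h in 27 genes, at 6 h in 42 and at 24 h in 29. Total ratios were lowest at 2 h in 4 genes, at 6 h in 60 and at 24 h in 34. From 6 to 24 h the T>C ratio became less negative in 62 genes and the total ratio in 64. The T>C ratio of DUSP5 changed the most in this direction among the 98 genes, from -6.16 to -2.28, and that of MYB the most in the other, from -2.29 to -4.43. No test of these differences between time points was made, since the rule used the values at each of them.

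**Figure D4:**
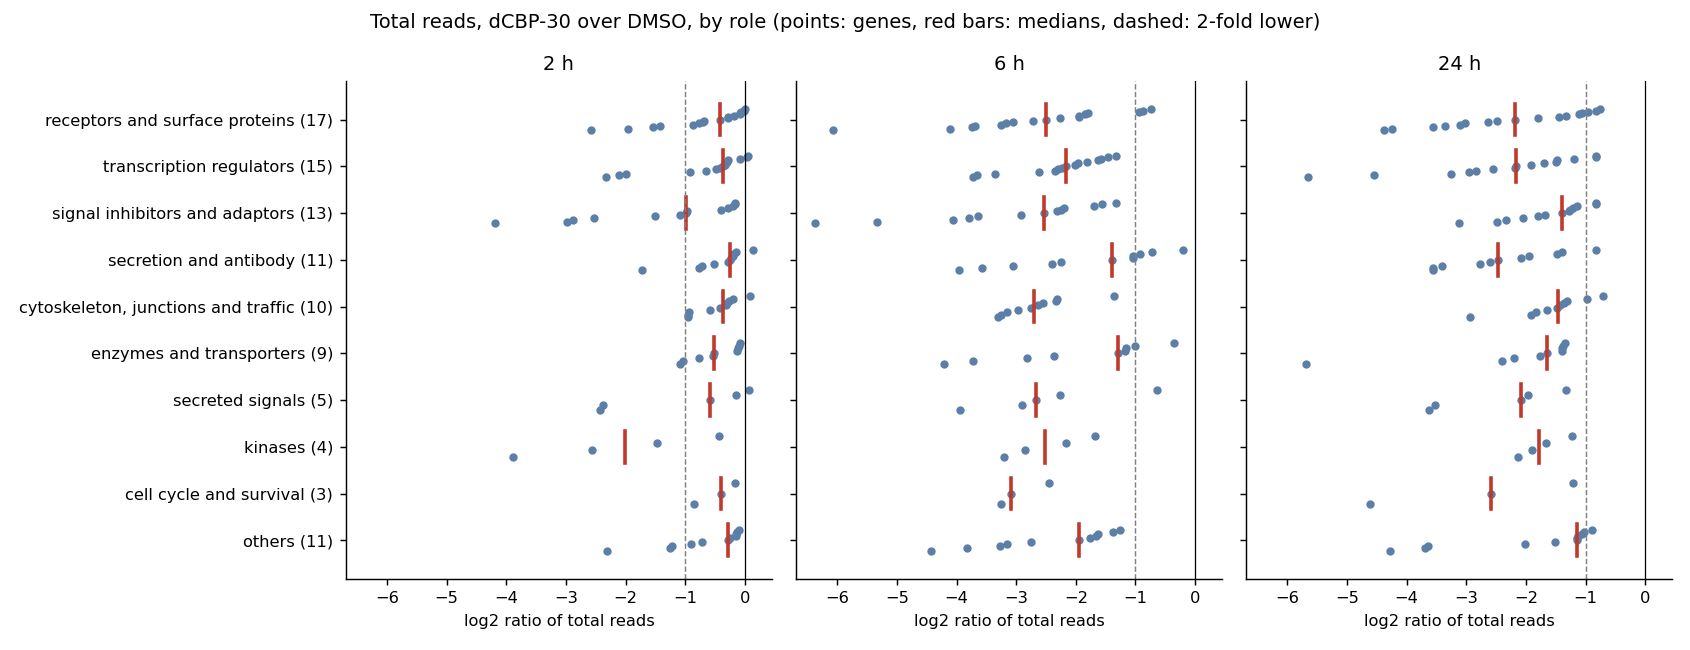
Log2 ratio of total reads, dCBP-30 over DMSO, at 2, 6 and 24 h for the 98 genes by role, with the number of genes in brackets; points are genes, red bars medians and the dashed line marks 2-fold lower. At 2 h the medians of the kinases (-2.02) and of the signal inhibitors and adaptors (-0.99) lie lowest, and at 6 h every median lies below -1.

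By role, the median total ratio at 2 h was -2.02 for the 4 kinases and -0.99 for the 13 signal inhibitors and adaptors, and between -0.58 and -0.25 for the other groups. The median T>C shares under DMSO were 52.1% and 31.6% in these groups. The 11 genes of secretion and antibody had a median share of 10.6% and median total ratios of -0.25, -1.40 and -2.48. Gene by gene, the total ratio was lowest at 6 h in 6 of these 11, XBP1 and TENT5C among them, and at 24 h in 5, of which the TXNDC5 pair is 1 observation. Receptors and surface proteins had a median share of 14.1% and total ratios of -0.42, -2.50 and -2.18, and transcription regulators 17.1% and -0.37, -2.16 and -2.17. The T>C ratios at 2 h differed less between roles, with medians from -2.08 for enzymes and transporters to -3.11 for kinases.

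The 3′ UTRs were searched for AU-rich elements, which recruit decay factors to short-lived mRNAs. The AU-rich nonamer TTATTTATT, in DNA letters and searched in the direction of the transcript, was held by 10 of the 98 UTRs (10.2%) and by 9.55% of the UTRs of the 4187 genes at the floor. Its distribution over the classes was uneven: 9 of 23 genes with a share over 30% held it (39.1%), 1 of 48 with 10 to 30% (2.08%) and 0 of 27 under 10%. Over the 4187 genes the shares in these classes were 19.7%, 10.9% and 5.46%. The pentamer ATTTA, which the nonamer contains, was in 85.7% of the 98 UTRs and 78.6% of the 4187. The heptamer TATTTAT was in 40.8% and 37.8%, and the median UTR lengths were 1958 and 1933 bases. From the highest to the lowest class of share, the heptamer was in 56.5%, 47.9% and 14.8% of the set. Over the 4187 genes it was in 57.9%, 47.2% and 23.0%. The pentamer was in 91.3%, 91.7% and 70.4% against 90.5%, 88.1% and 65.9%. In the class over 30% these shorter motifs were thus near the genes at the floor, unlike the nonamer. The motifs were chosen after the values were known, and a match is a description, not a site shown to be used.

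Sites are shown for 5 of the short-lived genes, each as 29 bases of hg38 in the direction of the transcript, 5′ to 3′, with the first nonamer of the UTR in capitals. The UTRs of PIM1 and GDNF hold 3 and 2 copies. In PIM1 the further copies overlap in the bases shown and are in part in lower case.
TNFAIP3, chr6:137882298-137882326, plus strand: gtaattcactTTATTTATTttattacaaa
GDNF, chr5:37814661-37814689, minus strand: taagttattgTTATTTATTaccgttcact
PIM1, chr6:37174985-37175013, plus strand: tgttatgtatTTATTTATTtatttatttg
ARID5B, chr10:62096116-62096144, plus strand: caggactgacTTATTTATTtactagctag
NUAK1, chr12:106063587-106063615, minus strand: tttgtcttttTTATTTATTggtctgaaag

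Beside these sites, the T>C shares under DMSO were 70.4% for TNFAIP3, 69.4% for GDNF, 68.4% for PIM1, 65.9% for ARID5B and 35.9% for NUAK1. Their total log2 ratios at 2 h were -2.88, -2.38, -2.57, -2.11 and -1.47. SGK1 and ADM, with the highest shares of the set, did not hold the nonamer.

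The promoters of the 98 genes were set beside those of the other genes, in windows of 300 bases from 250 before to 50 after the start of the Ensembl canonical transcript (hg38). Most human promoters are rich in the dinucleotide CG, and promoters poor in it are common among genes used in few tissues. The observed count of CG over the count expected from the C and G content was under 0.4 in 24 of the 98 promoters (24.5%) and in 155 of the 4187 at the floor (3.70%). Over all 19592 genes with a window it was under 0.4 in 23.4%, so the share in the set was near that of all genes and above that of the expressed ones. The medians were 0.80, 0.89 and 0.78. Of the 24 genes, 7 were receptors and surface proteins (BTN2A2, CCR1, CD48, CSF2RB, FCMR, P2RY10 and TNFRSF13B) and 3 of the 5 secreted signals (IGF1, LEFTY2 and WNT5B). Of 3 genes of cell cycle and survival and 4 kinases, none was among them. IGLC1 was among the 24, with a window at the start of the annotated constant region, and whether transcription starts there was not tested. Both genes of the TXNDC5 pair count among the 98, and neither among the 24. The start site taken matters: 73 of the 98 genes also had a promoter window from the RefSeq annotation. In 48 genes that window was the same 300 bases. How the shares change with other start sites was not tested.

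Among the motifs searched on both strands, CCGGAAG, a core of ETS family sites, was in 5.10% of the 98 promoters against 23.1% of the 4187 and 14.3% of all. The E-box CACGTG was in 6.12% against 12.3% and 8.88%, and GGGCGG, the core of SP1 sites, in 62.2% against 76.2% and 62.3%. TATAAA was in 10.2% against 4.97% and 9.38%, and the E-box CAGCTG in 22.4% against 14.2% and 17.7%. For GGGCGG and TATAAA the set was thus near all genes. The motif of ETS sites, the first E-box and the SP1 core contain CG, and the part of CG content in their shares was not tested. The motifs were chosen after the values were known, and the shares are a description with no test.

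The windows of 4 genes show the range, each 5′ to 3′ in the direction of the gene with every CG in capitals. XBP1 is rich in CG, and CCR1, TNFRSF13B and JCHAIN are poor in it.
XBP1, chr22:28800520-28800819, minus strand: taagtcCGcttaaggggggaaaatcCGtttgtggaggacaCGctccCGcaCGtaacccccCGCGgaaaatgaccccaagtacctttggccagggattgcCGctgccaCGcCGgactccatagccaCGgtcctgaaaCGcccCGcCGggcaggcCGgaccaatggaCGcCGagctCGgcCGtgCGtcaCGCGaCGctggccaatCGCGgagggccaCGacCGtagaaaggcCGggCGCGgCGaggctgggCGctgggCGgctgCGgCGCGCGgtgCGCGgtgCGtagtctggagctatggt
CCR1, chr3:46208264-46208563, minus strand: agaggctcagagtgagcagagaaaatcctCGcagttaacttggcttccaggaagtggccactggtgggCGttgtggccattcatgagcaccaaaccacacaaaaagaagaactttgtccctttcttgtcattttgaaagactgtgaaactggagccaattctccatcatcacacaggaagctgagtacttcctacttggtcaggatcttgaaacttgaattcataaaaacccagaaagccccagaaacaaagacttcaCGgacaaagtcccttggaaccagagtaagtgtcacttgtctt
TNFRSF13B, chr17:16972069-16972368, minus strand: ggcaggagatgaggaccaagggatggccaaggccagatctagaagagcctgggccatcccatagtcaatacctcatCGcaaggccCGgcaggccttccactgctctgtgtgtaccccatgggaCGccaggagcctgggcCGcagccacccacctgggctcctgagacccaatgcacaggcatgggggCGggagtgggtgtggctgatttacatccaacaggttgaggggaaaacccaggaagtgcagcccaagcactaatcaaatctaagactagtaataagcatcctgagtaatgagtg
JCHAIN, chr4:70666459-70666758, minus strand: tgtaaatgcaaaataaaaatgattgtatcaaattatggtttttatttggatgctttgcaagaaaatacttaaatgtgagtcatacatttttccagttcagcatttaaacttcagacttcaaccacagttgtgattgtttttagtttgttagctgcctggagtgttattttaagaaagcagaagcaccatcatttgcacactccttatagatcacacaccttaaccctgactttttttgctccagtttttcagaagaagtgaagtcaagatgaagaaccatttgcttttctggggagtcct

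The window of XBP1 holds 40 CG and has an observed over expected ratio of 1.14. Those of CCR1 and TNFRSF13B hold 3 and 5, with ratios of 0.195 and 0.204, and that of JCHAIN holds 0. T>C reads at 2 h were down to 15.9%, 2.42%, 8.01% and 11.8% of DMSO in these genes, and that of JCHAIN was no higher than its background without 4sU.

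**Figure D5:**
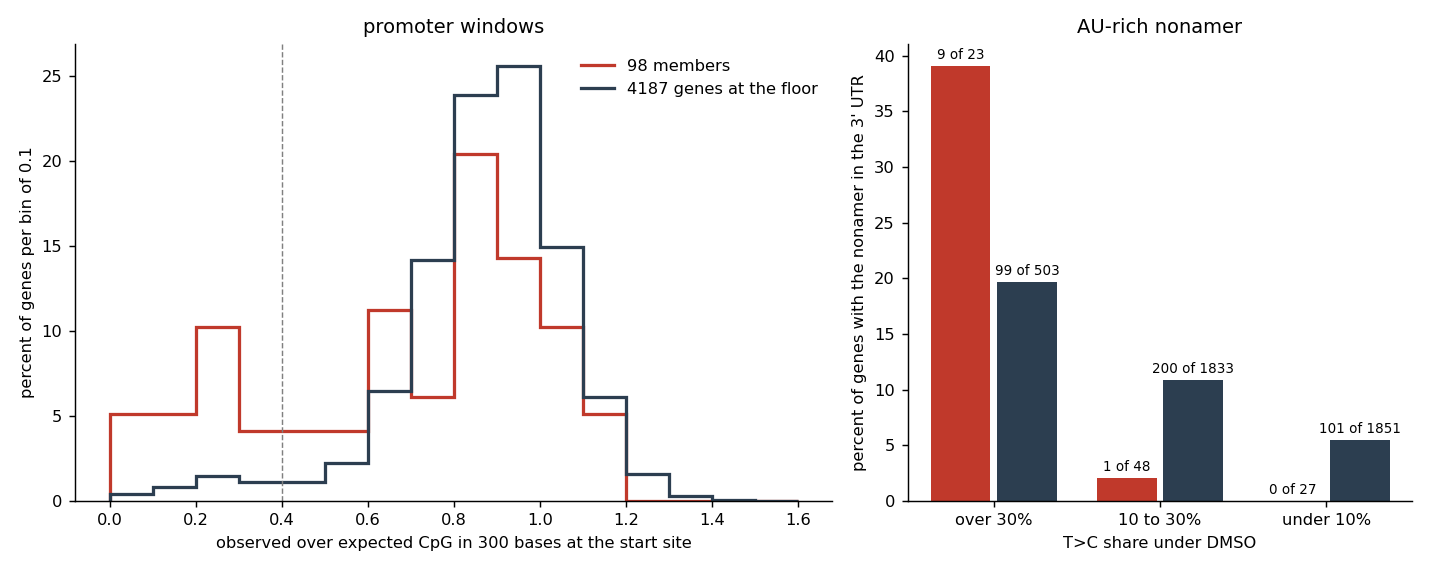
Left, share of genes (percent per bin of 0.1) by observed over expected CG in 300 bases at the start site, for the 98 genes and the 4187 genes at the floor, with a dashed line at 0.4; right, percent of genes whose 3′ UTR holds the AU-rich nonamer, by class of T>C share under DMSO, with the counts above the bars. In the 98 genes 24.5% lie left of the line against 3.70%, and the nonamer is in 9 of 23, 1 of 48 and 0 of 27 genes from the highest to the lowest share.

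The level of the set under DMSO alone was compared between time points. Total reads of DMSO libraries at 6 and at 24 h were compared with those at 2 h by edgeR's quasi-likelihood test over 12298 genes. The rule did not use this contrast. It did ask for 3 RPM of T>C reads under DMSO at each time point, and total reads contain T>C reads. Calls within the set are therefore not independent of the rule. At 6 h, 0 genes were called higher and 0 lower (0% of all tested; adjusted p under 0.05 and 2-fold), and at 24 h 3 were higher (0.0244%) and 4 lower (0.0325%). Of the 98 genes, edgeR called 0 at either time, and DESeq2 called 0 at 6 h and 1, lower, at 24 h. At an unadjusted edgeR p under 0.05 were 4 and 22 of the 98, beside 932 and 1330 of the 12298. At 6 h this was a smaller part of the set than of all genes, and at 24 h a larger one. Above their level at 2 h lay 54 of the 98 at 6 h and 37 at 24 h, beside 6228 and 6038 of the 12298. The median log2 differences of the 98 genes were 0.02 and -0.07, within -0.72 and 0.55 at 6 h and within -1.11 and 0.68 at 24 h. The only gene beyond 2-fold was CXCR4 at 24 h, at -1.11 ± 0.28 (SE, edgeR adjusted p = 0.104), and NCK2 at 24 h was the only one with an adjusted p under 0.05, at 0.68 ± 0.14 (edgeR adjusted p = 0.0399). The test used 3 libraries per group, and since nothing in the labels says that they came from separate cultures, p measures the spread between these libraries, which may be technical.

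Part of the T>C reads left under dCBP-30 is what reads without 4sU would give. The share of T>C reads of each gene in the libraries without 4sU, applied to its total reads, came to a median of 25.1% of the T>C reads of the dCBP-30 libraries at 2 h (interquartile range 9.49 to 51.8%), with 5.60 and 4.81% later. In the DMSO libraries the medians were 3.99, 3.82 and 2.65%. At 2 h it was 50% or more of the T>C reads in 27 genes, at 6 h in 10 and at 24 h in 1. With this background taken off, the median T>C log2 ratios were -2.84, -2.96 and -2.44. At 2 h it came to more than all of the dCBP-30 T>C reads for LAMP5 (133%), LEFTY2 (122%), FCMR (118%), JCHAIN (111%) and CYTIP (103%). At 6 h it did so for CD44 (104%) and FCMR (101%). These levels were thus not above the background. At 2 h it made up 84.5% for TNFRSF13B, 68.1% for SDC1 and 3.88% for TRIB1. For IGLC1, just inside the limit, it made up 68.9% at 2 h and 80.2% at 6 h. In the DMSO libraries it made up 26.8% and 27.0% of the T>C reads of IGLC1. With it taken off, the T>C log2 ratios of IGLC1 were -2.74 and -3.63 at these times. LRRC14B had a share of 12.4% without 4sU, far above the other genes of the set, of which CYTIP was next with 2.62%. The 3′ UTRs of TXNDC11, CCDC86, FCMR, CCND1, ANKRD37 and the TXNDC5 pair overlap a gene on the opposite strand (SNN, PTGDR2, IL24, LTO1, UFSP2 and BMP6). How strand was used in counting is not given in the sources used here, so reads of these pairs are uncertain.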

How the data were processed

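MM1.S cells were measured by SLAM-seq on QuantSeq 3′-end libraries. Per the methods, the authors trimmed reads with Trim Galore, ran Slamdunk against 3′ UTRs of hg38 and collapsed reads per transcript; the deposited values are raw counts of reads and of T>C reads. Transcripts were matched to GENCODE genes (91.4% of 97466 transcript rows, with at most 0.199% of a library's reads unmatched). RPM is relative to reads on genes, and Drosophila spike-in reads were not used here, so a change in RNA per cell shared by all genes would not be seen.

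Genes, lists and motifs were chosen with earlier results of these data known. Given in full were the 10 genes with the most T>C reads under DMSO and the 6 with the lowest mean T>C ratio, and by name genes on the lists, nearest the limit, or at the ends of T>C share or of total ratio at 24 h. Others were named by role, and example libraries of further genes were chosen after their values were seen.

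DMSO time points were compared on total counts with edgeR 4.0.16 (R 4.3.3; TMM, filterByExpr with a minimum count of 10, quasi-likelihood test, Benjamini-Hochberg), over 18 labelled libraries. On simulated data for 24 against 2 h, 79% of 4-fold and 61% of 2-fold changes were recovered among 12045 genes. Recovery was counted at an adjusted p under 0.05 alone, without the 2-fold limit that the calls also needed. These shares thus do not give the power of the calls. Alternatives were DESeq2 1.42.0, other scalings, filters and limits, a block for the replicate number, and each library left out in turn. Python 3.11.15 was used elsewhere. Counts of PCR reads without molecular identifiers are not independent molecules, so intervals cover counting error only. A few genes and 1 list are not reported here.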

Additional observations from a re-analysis of the deposited data

How the results depend on the processing

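All 98 genes met the limits when total reads were scaled by TMM factors, where 179 genes did. With a floor of 10 RPM 58 met them, with a limit of -1 230 and with a limit of -2 47, and with each library left out 90 to 115. Scaling by the T>C reads of the library gave 70 genes, all of them in the set, so the rest of the 98 no longer met the limits. Reads summed over transcripts gave 86, of which 75 were in the set. A pseudocount of 1 RPM gave 85, one of 0.1 RPM 118, a floor of 1 RPM 110 and background subtraction 116 (97 of the set). Without genes whose 3′ UTR overlaps another gene on the same strand, a setting chosen after seeing the data, 95 were left. TMM scaling moved the median log2 ratio of the genes at the floor from 0.05, 0.08 and 0.18 to -0.06, -0.23 and -0.34 in total reads and from 0.00, -0.24 and -0.43 to -0.10, -0.53 and -0.91 in T>C reads at 2, 6 and 24 h. The cause of that shift was not tested. The median total ratio of the 98 genes was -0.53, -2.64 and -2.30 with TMM scaling, and -0.28, -2.19 and -1.41 in reads without a T>C conversion. With reads summed over transcripts it was -2.23 at 6 h, and with a library left out it ranged from -0.48 to -0.39, -2.45 to -2.35 and -1.85 to -1.76. Counts of genes 2-fold lower with no overlap were 19 to 31, 87 to 95 and 74 to 98 over these settings, and 22 to 28, 88 to 90 and 86 to 88 with a library left out. The share of T>C reads under DMSO was 4.75% over the pooled reads of the set, in which a few abundant RNAs weigh most, and 16.4 to 17.1% as a median with a library left out. The share of promoters poor in CG was 6.62 times that of the genes at the floor and 1.05 times that of all genes.

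Under DMSO, genes called higher at 6 h numbered 1 with DESeq2, 2 with no filter and 0 to 1 with a library left out, and genes called lower 2, 3 and 0 to 1. At 24 h, 16 were higher with DESeq2, 10 with no filter, 7 in reads without a T>C conversion and 0 to 3 with a library left out. Lower at 24 h were 13, 12, 20 and 0 to 5, and 1 without TMM factors. The replicate block left 1 higher and 1 lower at 24 h and changed no call in the set. Same-numbered libraries did not deviate together (r from -0.0888 to 0.0800), so the numbers were not used as pairs. Of the 98 genes, 1 was called lower at 24 h with DESeq2, with no filter, with DMSO libraries alone and in reads without a T>C conversion, and 0 with a library left out. Depth limits T>C levels most where a few reads were left under dCBP-30, as for CCND1, CYP26A1 and SH2B2.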
